A study of Mus musculus with 10 samples.

Results

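S100 proteins are small calcium sensors. Each carries a pair of EF-hand motifs, most work as dimers, and calcium binding opens a surface that grips a target protein. Some of them stay inside the cell and act on the cytoskeleton, on annexins or on calcium pumps, while S100a8 and S100a9, which together form calprotectin, are packed into neutrophils and monocytes and act as alarm signals once released. The family was followed here in abdominal aorta on 10 Affymetrix GeneChip mouse arrays. The labels number a separate mouse for each array, whereas the methods give a smaller number of mice for this work, and the difference was not settled. Should any arrays share a mouse, the n behind each test would be lower than stated. KCASP1Tg mice (n = 6) carry human caspase-1 under the keratin 14 promoter, so that the transgene is driven in keratinocytes, and they develop spontaneous dermatitis. WT mice (n = 4) were C57BL/6 littermates without the transgene. All mice were females of 4 months (16 weeks), and the labels give the tissue as dechorionated abdominal aorta. The transgene is human, and whether the mouse Casp1 probe set also measures it was not examined, so the genotype was not checked from the arrays. That probe set overlapped between groups (log2 fold change 0.58, limma adjusted p = 0.596).

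The family was taken as 10 genes, S100a1, S100a4, S100a6, S100a8, S100a9, S100a10, S100a11, S100a13, S100a16 and S100b, and as every probe set annotated to exactly 1 of these symbols. This gave 14 probe sets of 9 genes, out of 45037 probe sets and 18193 genes. The only probe set of S100a11 is shared with other symbols (3 in all) and gave no value. All 14 probe sets reached a signal of 100 on at least 4 arrays and were among the 26242 tested. Of the 10 genes, 9 lie on chromosome 3 and S100b lies on chromosome 10.

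The tissue was mixed, and the arrays differed in their makeup. Smooth muscle myosin Myh11 had a signal of 2453 on KCASP1Tg 4 and of 8482 to 14068 on the other KCASP1Tg arrays, against 10100 to 11534 in WT mice. The adipocyte hormone Adipoq was at 29503 to 45368 in KCASP1Tg mice and at 30703 to 37705 in WT mice, so fat transcripts were present on every array. The summed signal of 9 heart muscle genes was 38157 on KCASP1Tg 1, 22193 on KCASP1Tg 2 and 78220 on WT 4, against 694 to 3478 on the others. The summed signal of 3 B cell genes was 9378 on KCASP1Tg 4, against 326 to 1233 on the other KCASP1Tg arrays and 257 to 697 on the WT arrays. That of 4 T cell genes was 5517 on KCASP1Tg 4 and 166 to 671 on the others. For 6 skeletal muscle genes it was 27003 on KCASP1Tg 4 and 26440 on WT 1, against 2186 to 7919 on the others. In such bulk tissue, more cells of a type and more RNA per cell cannot be told apart.

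S100a8 and S100a9 were higher in KCASP1Tg aorta, and no other family member passed the test in either direction. Of the 14 probe sets, 2 were called higher and 0 lower at a limma adjusted p under 0.05. Among all tested probe sets 0.0686% were called higher and 0% lower. Before adjustment, limma p-values under 0.05 were found for 3 of the 14 probe sets, and for 1185 higher and 898 lower probe sets of all tested. The exact Mann-Whitney test gave 0 after adjustment, but its p cannot fall under 0.00952 with this number of arrays, so it could hardly call any. In 2 of the 14 every KCASP1Tg array lay above every WT array, against 1.98% of all tested probe sets, in 1 every KCASP1Tg array lay below every WT array, against 0.949%, and in 11 the groups overlapped. The median log2 fold change of the 14 was -0.07, beside a median near 0 (-0.0018) over all tested probe sets. The spread between mice was wider than usual in KCASP1Tg mice, with a median SD of 0.35 on the log2 scale for the family against 0.29 for all tested probe sets, while in WT mice both were 0.24.

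**Figure D1:**
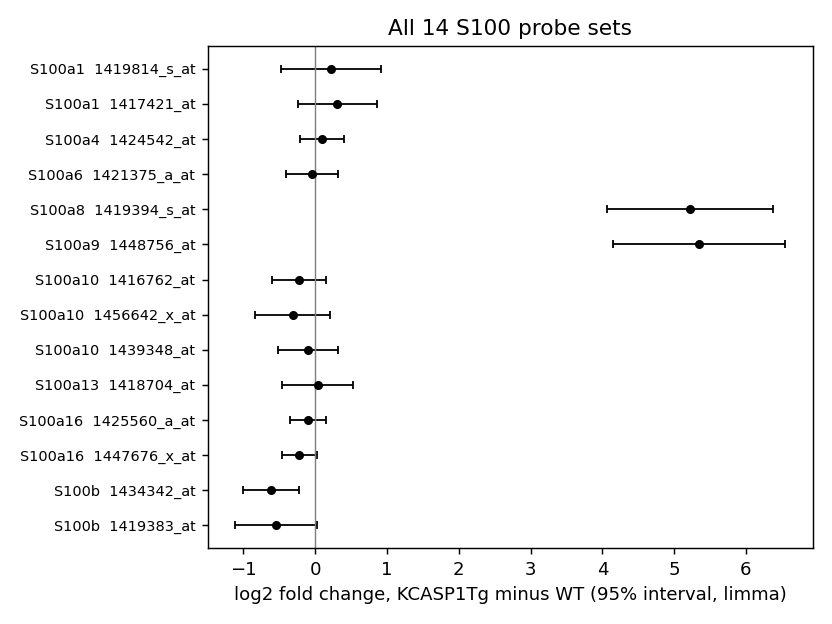
Log2 fold change of KCASP1Tg over WT signal (x axis) for the 14 S100 probe sets (rows), with points for the limma estimate and bars for its 95% interval, from 6 KCASP1Tg and 4 WT arrays. S100a8 and S100a9 sit at 5.22 and 5.34, and S100b 1434342_at is the other probe set whose interval leaves out 0.

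The promoters of S100a8 and S100a9 are shown because these genes carried the change, and that of S100a1 and S100a13 because these genes moved together. Sequences are RefSeq windows of build GRCm38.p6, read 5′ to 3′ on the gene's strand. For S100a8 (chr3:90668841-90669090, plus strand) and S100a9 (chr3:90695702-90695951, minus strand) they hold 230 bases before the start and 20 from it. The third is the 104 bases between the divergent starts of S100a1 and S100a13 (chr3:90514331-90514434, plus strand). Capitals mark a TATAAA match or a match, on either strand, to GAGGAAGT, the core bound by PU.1 type ETS factors.
S100a8: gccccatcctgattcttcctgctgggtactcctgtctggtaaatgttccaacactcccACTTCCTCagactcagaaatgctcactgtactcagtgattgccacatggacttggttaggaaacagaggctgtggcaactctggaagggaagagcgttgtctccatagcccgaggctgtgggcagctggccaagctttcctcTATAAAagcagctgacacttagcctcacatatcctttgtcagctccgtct
S100a9: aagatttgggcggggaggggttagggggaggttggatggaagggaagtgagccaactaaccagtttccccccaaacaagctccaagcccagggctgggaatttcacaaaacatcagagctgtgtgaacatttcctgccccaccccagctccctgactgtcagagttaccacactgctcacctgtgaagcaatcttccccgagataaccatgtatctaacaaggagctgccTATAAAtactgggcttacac
S100a1 and S100a13: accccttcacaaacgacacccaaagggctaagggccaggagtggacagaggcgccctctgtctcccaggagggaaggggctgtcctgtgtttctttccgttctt
In windows of 300 bases TATAAA was found in 13.6% and GAGGAAGT in 3.2% of 32851 promoters. S100a8 held TATAAA beginning 30 bases before its start and the reverse complement of GAGGAAGT beginning 172 bases before it. S100a9 held TATAAA at base 1 from its annotated start. S100a4, whose log2 fold change was 0.10, held the same pair of motifs. Its TATAAA began 31 bases before its start, and its reverse complement of GAGGAAGT began at base 18 from the start. The C/EBP motif TTGCNNAA (10.8% of promoters) was found in S100a9, beginning 236 bases before its start, and the AP-1 motif TGANTCA (7.81%) in S100a16 and S100a11. S100a10 had no promoter entry, so the search covered 9 of the 10 genes. The S100a1 and S100a13 stretch held no TATAAA or GAGGAAGT. A match here is a description of letters, not of a bound site.

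S100a8 encodes the smaller partner of calprotectin. Its signal in KCASP1Tg aorta was 2705 at the lowest, 3198 at the median and 21043 at the highest, against 130.7, 110.4, 124.4 and 132.2 in the 4 WT mice. Every KCASP1Tg mouse lay above every WT mouse, and KCASP1Tg 4 stood far above the rest of its group. Against the WT mean, 5 KCASP1Tg arrays were 21.8-fold to 47.7-fold higher and KCASP1Tg 4 was 169.5-fold higher. The log2 fold change was 5.22 (SE 0.52, 95% interval 4.07 to 6.37, limma adjusted p = 0.00633). Without KCASP1Tg 4 it was 4.78 (limma adjusted p = 3.48e-05).

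S100a9, the calprotectin partner with the longer tail, gave nearly the same picture. Its signal was 2399 at the lowest, 2863 at the median and 20293 at the highest in KCASP1Tg mice, against 121.9, 99.9, 85.9 and 106.2 in WT mice. The groups did not overlap, and the highest array was again KCASP1Tg 4. The log2 fold change was 5.34 (SE 0.54, 95% interval 4.14 to 6.54, limma adjusted p = 0.00633), and 4.89 without KCASP1Tg 4. For both genes the exact two-sided Mann-Whitney p was 0.00952, the smallest that 6 against 4 mice allow. Both calls were lost when WT 4, KCASP1Tg 1 and KCASP1Tg 2, the arrays with heart muscle transcripts, were left out (limma adjusted p = 0.200 each). The log2 fold changes were then 5.56 (SE 0.66) and 5.67 (SE 0.69). With fewer arrays in this setting, 2 probe sets of all tested were called higher, against 18 with all arrays. The WT signals were near the filter of 100 and detection calls were not used, so the size of the fold rests on dim WT values.

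**Figure D2:**
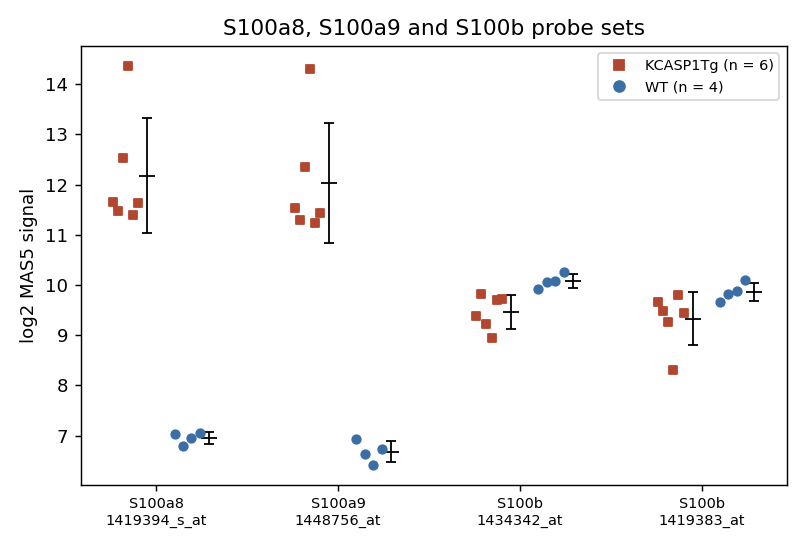
Log2 signal (y axis) of S100a8, S100a9 and both S100b probe sets (x axis) in 6 KCASP1Tg mice (squares, left) and 4 WT mice (circles, right), with bars for the mean and SD. The KCASP1Tg squares of S100a8 and S100a9 lie above every WT circle, those of S100b 1434342_at lie below every WT circle, and those of S100b 1419383_at overlap them.

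The pair moved together among the KCASP1Tg mice. Across the 6 KCASP1Tg mice S100a8 and S100a9 had Pearson r = 0.9996 (exact permutation p = 0.00278, Benjamini-Hochberg adjusted 0.0259 over 18 pairs of members) and Spearman rho = 1 (adjusted permutation p = 0.0403). Without KCASP1Tg 3 and KCASP1Tg 4, r was 0.97. The 4 WT mice were too few for a correlation. Of the 18 pairs, 2 had an adjusted Pearson p under 0.05, this one and S100a1 with S100a13. With each genotype's mean taken out, the probe sets most like S100a8 among 22266 were those of S100a9 (r = 0.991), Man2b1 and Sp1. For S100a9 they were Plekha2 (r = 0.993), S100a8 and Cd53. These likenesses over 10 arrays are descriptions that lean on KCASP1Tg 4, without which S100a8 and S100a9 had r = 0.956.

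Some other neutrophil genes had higher values in KCASP1Tg aorta, but 0 passed the test. Of 16 such genes 14 had a probe set and 10 were tested. In 6 of the 14 (Camp, Ngp, Mmp8, Lcn2, Ltf and Cd177) every KCASP1Tg array lay above every WT array, against 1.98% of all tested probe sets, and in the other 8, with Mmp9, Mpo, Il1r2 and Elane among them, the groups overlapped. Camp, Mmp8, Ltf, Csf3r, Il1r2 and Mpo were under 100 on every WT array and were tested only through their KCASP1Tg values. For these genes the filter itself favoured a positive log2 fold change, whose size rests on dim WT signals. The granule peptide Camp had 137.6 to 3502 in KCASP1Tg mice and 9.0 to 56.5 in WT mice, with a log2 fold change of 4.44 (SE 0.88, limma adjusted p = 0.125). Its neighbour in the granule, Ngp, had 3.82 (limma adjusted p = 0.117). The collagenase Mmp8 had 3.20 (limma adjusted p = 0.108) and the iron trap Lcn2 had 2.74 (limma adjusted p = 0.119). The G-CSF receptor Csf3r overlapped between groups, with 71.8 to 584.9 in the KCASP1Tg group and 43.9 to 86.1 in the WT group. The summed signal of the 14 genes was 2436 to 25591 in KCASP1Tg mice, or 2436 to 4308 without KCASP1Tg 4, against 986 to 1320 in WT mice. The summed signal of 10 monocyte and macrophage genes was 16214 to 45050 in KCASP1Tg mice and 11652 to 15916 in WT mice. Much of it came from the bright Lyz2, at 7854 to 23670 in KCASP1Tg mice and 4318 to 7035 in WT mice. In 3 of the 10 (Cd68, Lyz2 and Fcgr1) every KCASP1Tg array lay above every WT array. The others, with Csf1r and Adgre1 among them, overlapped between groups, and 0 of the 10 were called. The Fc receptor Fcgr1 had a log2 fold change of 0.83 (limma adjusted p = 0.109). The keratinocyte sum did not stand apart, at 271 to 506 in the KCASP1Tg group and 374 to 442 in the WT group. The part of these cell types in the S100a8 and S100a9 signals was not tested.

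**Figure D3:**
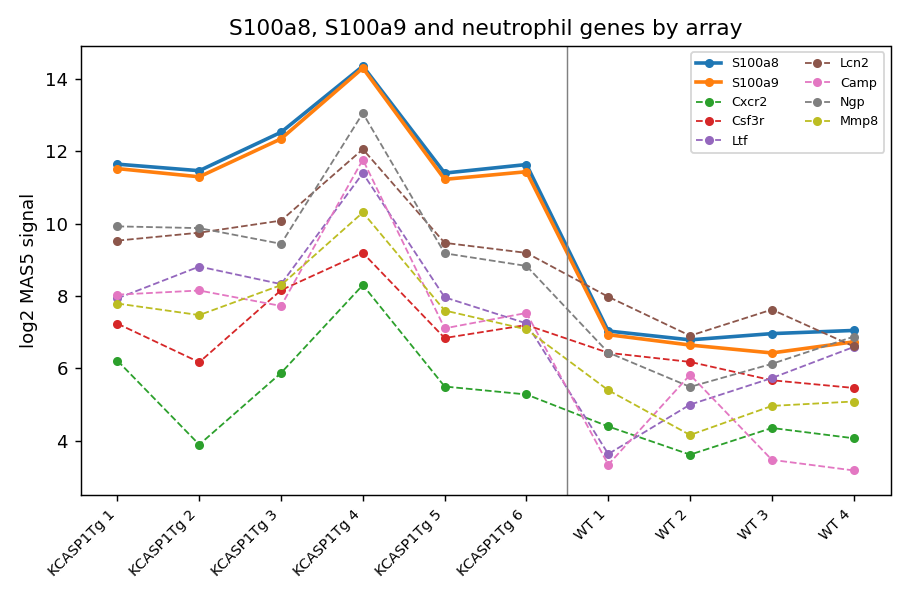
Log2 signal (y axis) of S100a8, S100a9 and 7 neutrophil genes on each array (x axis, 6 KCASP1Tg arrays left of the line and 4 WT arrays right of it). Each gene shown has its highest value on KCASP1Tg 4, and S100a8 and S100a9 lie above every WT value on each KCASP1Tg array.

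S100b, the Schwann cell and adipocyte member of the family, had lower values in KCASP1Tg aorta but did not pass the test. Probe set 1434342_at had a signal of 494.8 at the lowest, 749.9 at the median and 903.7 at the highest in KCASP1Tg mice, against 968.5, 1067.5, 1079.6 and 1224.4 in WT mice. Every KCASP1Tg mouse lay below every WT mouse, although the groups overlapped once arrays were centred on their medians. The log2 fold change was -0.61 (SE 0.18, 95% interval -1.01 to -0.22, limma adjusted p = 0.374). Probe set 1419383_at overlapped between groups, with 319.1 to 889.1 in KCASP1Tg mice and 811.6 to 1096.1 in WT mice (log2 fold change -0.54, limma adjusted p = 0.658), and its lowest array was KCASP1Tg 4. Without that array the log2 fold changes were -0.51 and -0.34. The probe sets followed each other across the 10 arrays with r = 0.857. Schwann cell myelin gene Mbp had 3233 to 6401 in KCASP1Tg mice and 3373 to 9816 in WT mice, and the sum of 7 Schwann cell genes was 11703 to 25056 in KCASP1Tg mice and 11788 to 27402 in WT mice. Without WT 4 the WT sums were 24788 to 27402. Of these 7 genes, all tested, 1 had a positive log2 fold change and 0 were called (median -0.32, beside a median near 0 over all tested probe sets). WT 4 had the lowest Schwann cell sum in its group and the highest S100b 1434342_at signal. Among the 6 KCASP1Tg mice S100b 1434342_at had r = -0.89 with S100a9 (exact permutation p = 0.0111, adjusted 0.05) and r = -0.89 with S100a8 (exact permutation p = 0.0194, adjusted 0.0659), with rho = -0.83 for each (adjusted permutation p = 0.175). Neither pair passed the threshold, and without KCASP1Tg 3 and KCASP1Tg 4 these r were -0.72 and -0.58. The part of nerve and fat in the S100b signal was not tested.

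S100a1, known from heart muscle as a partner of the ryanodine receptor and the calcium pump, and S100a13, which takes part in the release of Fgf1 and Il1a, did not differ beyond the spread between mice. S100a1 1419814_s_at had 5099 to 14196 (median 11645) in KCASP1Tg mice, against 7703, 6748, 7822 and 13331 in WT mice. Its log2 fold change was 0.22 (95% interval -0.48 to 0.92, limma adjusted p = 0.946), and the second probe set, 1417421_at, gave 0.31 (limma adjusted p = 0.837). Without WT 4 these values were 0.43 and 0.50, and without KCASP1Tg 4 they were 0.42 and 0.41. S100a13 had 3419 to 6043 (median 5090) in KCASP1Tg mice, against 4871, 3948, 3655 and 6387 in WT mice (log2 fold change 0.04, limma adjusted p = 0.995).

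These neighbours rose and fell together from mouse to mouse. Over the 10 mice S100a1 and S100a13 had Pearson r = 0.89 (permutation p = 0.00288, adjusted 0.0259) and Spearman rho = 0.83 (permutation p = 0.00448, adjusted 0.0403). The r was 0.87 without the 2 arrays farthest from the S100a1 median and 0.92 within the KCASP1Tg mice. The probe sets most like S100a1 were Cox6c (r = 0.998), Hadh (r = 0.996) and Cox4i1 (r = 0.995), which serve respiration and fatty acid oxidation. The summed signal of 6 brown adipocyte genes, with the uncoupling protein Ucp1 among them, was 25785 on KCASP1Tg 4, its lowest value. It was 39461 to 93317 on the other KCASP1Tg arrays and 42242 to 113610 on the WT arrays. The heart muscle sum was also lowest on KCASP1Tg 4, at 694, and highest on WT 4, at 78220. S100a1 1419814_s_at was lowest on KCASP1Tg 4 too, and among WT mice highest on WT 4, whereas 1417421_at was lowest on WT 3. From KCASP1Tg 1 to KCASP1Tg 6 the heart muscle sums were 38157, 22193, 2376, 694, 1282 and 1283. The brown adipocyte sums were, in the same order, 56617, 89527, 93317, 25785, 80093 and 39461. On these arrays S100a1 1419814_s_at was 10382, 14183, 14196, 5099, 12908 and 7310. The part of brown fat and of heart muscle in the S100a1 signal was not tested.

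**Figure D4:**
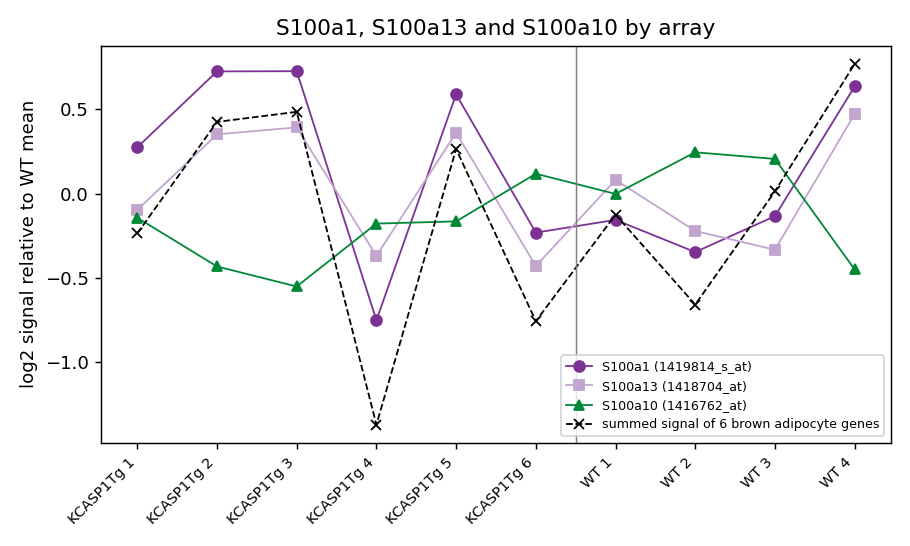
Log2 signal relative to the WT mean (y axis) of S100a1, S100a13 and S100a10 and of the sum of 6 brown adipocyte genes, by array (x axis, 6 KCASP1Tg arrays left of the line and 4 WT arrays right of it). S100a1 and S100a13 varied together (r = 0.89), but their highest arrays (KCASP1Tg 3 and WT 4) and lowest arrays (KCASP1Tg 4 and KCASP1Tg 6) differed. S100a10 had r = -0.79 with S100a13, which did not pass the threshold after adjustment.

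S100a10, the partner of annexin A2 at the cell membrane, did not differ beyond the spread between mice. Probe set 1416762_at had 6905 to 10978 (median 8984) in KCASP1Tg mice, against 10104, 11990, 11666 and 7406 in WT mice. The log2 fold change was -0.22 (95% interval -0.61 to 0.16, limma adjusted p = 0.826), and 1456642_x_at gave -0.31 (limma adjusted p = 0.821). The third, 1439348_at, was dim at 172 to 305 in KCASP1Tg mice and 204 to 324 in WT mice, and did not follow the first (r = -0.146). Over the 10 mice S100a10 had r = -0.79 with S100a13 (permutation p = 0.00976, adjusted 0.05; rho = -0.70, adjusted permutation p = 0.139). With S100a1 it had r = -0.73 (permutation p = 0.0220, adjusted 0.0659) and the same rho of -0.70. Neither pair passed the threshold. Without the 2 farthest arrays these r were -0.77 and -0.94. Annexin A2 (Anxa2) itself had 7159 to 9900 in KCASP1Tg mice and 9231 to 11428 in WT mice (log2 fold change -0.32, limma adjusted p = 0.496).

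The other members were not called either. S100a4, a metastasis-linked member that binds non-muscle myosin, had 1293 to 1901 (median 1537) in KCASP1Tg mice, against 1338, 1612, 1392 and 1441 in WT mice (log2 fold change 0.10, 95% interval -0.20 to 0.40, limma adjusted p = 0.943). Its myosin target Myh9 had 6215 to 10230 in KCASP1Tg mice and 5157 to 5800 in WT mice, with no overlap (log2 fold change 0.40, limma adjusted p = 0.496). S100a6, which binds the ubiquitin ligase adaptor Cacybp, had 4270 to 6674 (median 5668) in KCASP1Tg mice, against 5262, 7032, 5672 and 4444 in WT mice (log2 fold change -0.04, 95% interval -0.41 to 0.32, limma adjusted p = 0.992). S100a16, a broadly expressed member, had log2 fold changes of -0.10 for 1425560_a_at (95% interval -0.35 to 0.15, limma adjusted p = 0.919) and -0.22 for 1447676_x_at (95% interval -0.46 to 0.02, limma adjusted p = 0.673).

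**Figure D5:**
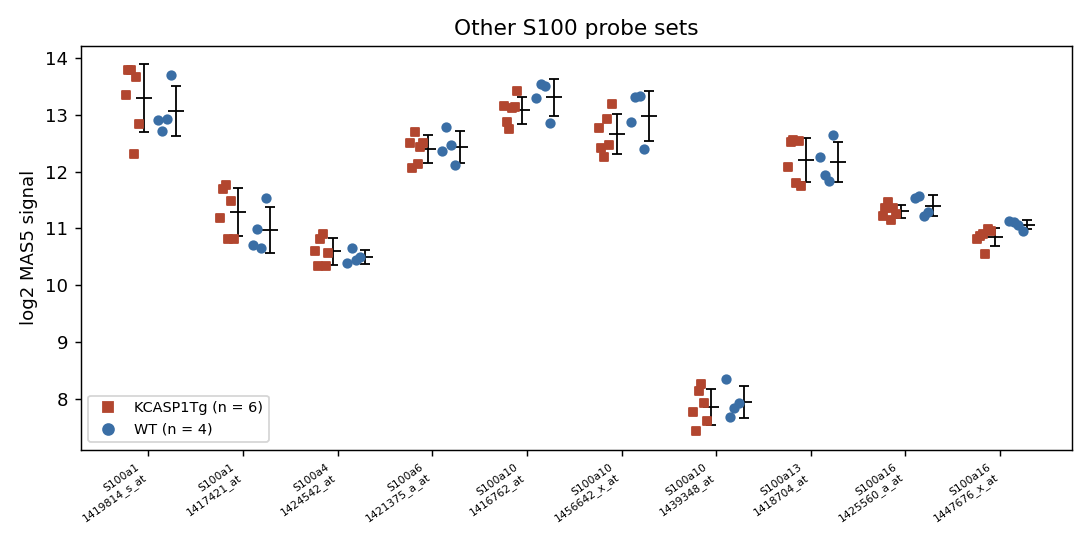
Log2 signal (y axis) of the 10 S100 probe sets other than those of S100a8, S100a9 and S100b (x axis) in 6 KCASP1Tg mice (squares, left) and 4 WT mice (circles, right), with bars for the mean and SD. The groups overlap in each probe set, and S100a10 1439348_at is the dimmest.

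Receptors and partners of the family did not pass the test. Of 9 receptor genes 8 were tested, 4 had a positive log2 fold change and 0 were called (median 0.03). Tlr4, a receptor for calprotectin, had 302.6 to 640.5 in KCASP1Tg mice and 263.1 to 404.0 in WT mice (log2 fold change 0.09, limma adjusted p = 0.976). Its co-receptor Cd14 had 538.4 to 1659 in KCASP1Tg mice and 481.0 to 695.3 in WT mice (log2 fold change 0.76, limma adjusted p = 0.531). Ager, which encodes RAGE, was too dim to be tested. Of 13 binding partners 11 were tested, 2 had a positive log2 fold change (median -0.09) and 0 were called. Of all tested probe sets 0.0686% were called higher and 0% lower, so the lack of calls does not set these genes apart. Of 14 further S100 and S100 fused-type genes 10 had a probe set, and none of these reached the signal filter.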

How the data were processed

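RNA of abdominal aorta from 6 KCASP1Tg and 4 WT mice is labelled with 1 array each, although the methods give fewer mice. The authors computed the deposited signal intensity per probe set with MAS5 under global scaling, and the mean after trimming 2% at each end was 500 on each array. Median signals were 128.6 to 155.9. Control probe sets (64) were left out. The deposited intensities were floored at 1 and log2 transformed. The 26242 probe sets that reached 100 on 4 or more arrays entered limma 3.58.1 (R 4.3.3), genotype as the only term, Benjamini-Hochberg adjustment over all of them and a threshold of 0.05, beside the two-sided exact Mann-Whitney test. Symbols were updated by gene identifier (34741) or kept (204). Probe sets ending in _s_at or _x_at can match more than 1 transcript. No scan date or batch is given in the sources used here. The members and gene lists were chosen with earlier results of these data known. The genes named are all members, defining or smallest-p genes of each list, and the 3 probe sets most like a member. The steps were tested on simulated data, drawn for each probe set apart and so with no shared differences in tissue makeup. There limma recovered 34 of 50 probe sets changed by a log2 of 1, and 50 of 50 changed by 4. Of its 194 calls, 15 were false. The number of arrays limits the precision.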

Additional observations from a re-analysis of the deposited data

Results flagged for a closer look

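In 11 of 60 groups examined, 1 mouse stood apart from the others of its group (Dixon's criterion, which chance meets in about 1 group in 20). Most of these values came from KCASP1Tg 4. It had 20293 for S100a9 (other KCASP1Tg mice 2399 to 5221.5) and 319.11 for S100b 1419383_at (613.16 to 889.14). It also had 3502.2 for Camp (137.65 to 284.5), 8542.2 for Ngp (455.53 to 973.37), 4275.2 for Lcn2 (585.23 to 1087.4) and 10230 for Myh9 (6214.9 to 7191). Its Myh11 signal was low, at 2452.6 (8482.2 to 14068). In the WT group, WT 2 had 56.458 for Camp (other WT mice 9.0128 to 11.049). WT 3 had 263.13 for Tlr4 (382.8 to 404.04). WT 4 had 3372.8 for Mbp (8817.6 to 9816.1) and 99.767 for Fcgr1 (129.72 to 136.35).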

How the results depend on the processing

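S100a8 and S100a9 were higher under every alternative run (log2 fold changes 4.75 to 5.56 and 4.79 to 5.69), but were not called under 3 of 23. These were the replicate number as a block (5.55 and 5.69, limma adjusted p = 0.26 and 0.267), the removal of WT 4, KCASP1Tg 1 and KCASP1Tg 2 (limma adjusted p = 0.200), and the exact Mann-Whitney test (adjusted p = 0.325). In each of these 0 S100 probe sets were called. The Mann-Whitney p cannot fall under 0.00952 with 6 against 4 arrays, so that test could hardly call any probe set after adjustment. Same-numbered mice correlated at 0.108, -0.314, -0.435 and -0.326, which shows no pairing by number. Because the arrays differed in tissue makeup, these values cannot exclude a pairing. Over all probe sets (18 higher, 0 lower), the block and the Mann-Whitney test gave 0 and 0, array weights 204 and 63, and an adjusted p under 0.01 gave 10 and 0. A floor of 16 gave 21 and 1, a pseudocount of 50 gave 20 and 2, no filter 16 and 2, a filter of 200 gave 18 and 3, quantile normalization 17 and 1, and an intensity trend 22 and 3. Leaving out 1 array gave 10 (KCASP1Tg 1) to 61 (KCASP1Tg 4) higher, with 39 without KCASP1Tg 6, and 0 to 8 lower. Leaving out WT 4 and KCASP1Tg 3 gave 13 and 1, leaving out WT 4, KCASP1Tg 1 and KCASP1Tg 2 gave 2 and 0, and WT 1 to 3 with KCASP1Tg 1 to 5 gave 21 and 9. The count of S100 probe sets with every KCASP1Tg array below every WT array (1) was 0 after median centring, 1 to 2 with 1 array left out, 2 without WT 4 and KCASP1Tg 3, 2 without WT 4, KCASP1Tg 1 and KCASP1Tg 2, and 3 in WT 1 to 3 with KCASP1Tg 1 to 5. With 1 array left out the direction turned for S100a6 (-0.1455 to 0.0752), S100a13 (-0.0758 to 0.1927) and S100a10 1439348_at (-0.1863 to 0.0365, and 0.0286 without WT 4, KCASP1Tg 1 and KCASP1Tg 2). The causes were not tested.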
